A study of Mus musculus with 10 samples.

Results

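The genes described here are 10 members of the epidermal growth factor (EGF) system, taken by symbol from the 39017 genes of the deposited count table, and each symbol stood on 1 row. They comprise 6 ligands (Areg, Ereg, Hbegf, Tgfa, Btc and Epgn), 3 receptors (Egfr, Erbb2 and Erbb3) and the feedback inhibitor Errfi1. They were followed in lung tumours of KP mice (p53Fl/Fl beside a further allele, the Control group, 5 libraries) and of KPG1 mice, which carry Glut1Fl/Fl in addition (5 libraries labelled Glut1-KO). All mice were of C57BL/6 strain, and in both groups Ad5CC10-Cre was given into the airways to recombine these alleles. This virus drives Cre from a promoter of airway secretory cells, so only cells active for that promoter, and their descendants, should carry the recombined alleles. Tumours were cut out 20 weeks and 1 day later and dissociated, and RNA came from the cells left after CD45 beads had removed leukocytes. Ages of the mice are not given in the sources used here. The genotype label of the controls reads heterozygous for the floxed Glut1 allele while the description of the design calls them wild-type, and the methods of the study allow both.

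Per the labels, the 5 controls were all male, while in the Glut1-KO-labelled group replicates 1, 2 and 3 were female and replicates 4 and 5 male, so that a difference between the female libraries and the controls cannot be told apart from a difference between the sexes. The labels do not say that libraries came from separate animals, and p-values therefore measure only the spread between these samples. The libraries held 35.3 to 49.8 M counts each. Slc2a1, the gene of Glut1, stood at 118, 86.7, 92.6, 103 and 73.2 counts per M (CPM) in controls and at 60.3, 42.5, 34.6, 92.4 and 103 CPM in replicates 1 to 5 labelled Glut1-KO. Its log2 fold change was -0.62 (SE 0.287), with an adjusted p of 0.658 by limma. The targeted gene was thus below the controls in the 3 female libraries and inside their range in both male ones, and the group is called "labelled Glut1-KO" because every direction given below rests on the label.

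EGF family ligands are made as membrane-bound precursors that metalloproteases such as ADAM17 cut loose. Once free they bind EGFR, and some of them also ERBB4, whereupon receptors pair, phosphorylate each other and signal through RAS to the kinase ERK. ERBB2 has no known ligand of its own and acts as a partner, ERBB3 binds neuregulins and has little kinase activity, and ERRFI1 (also called MIG6) binds the kinase domain of the receptors and holds it inactive. In the lung, amphiregulin and EGFR are known for their part in epithelial repair.

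Of the 6 ligand genes, 4 lie side by side on chromosome 5. On the GRCm38 assembly these are Epgn (ENSMUSG00000035020, chr5:91027464-91035215, plus strand), Ereg (ENSMUSG00000029377, chr5:91074622-91093646, plus strand), Areg (ENSMUSG00000029378, chr5:91139599-91148432, plus strand) and Btc (ENSMUSG00000082361, chr5:91357261-91402994, minus strand). They are the only 4 protein-coding genes annotated in this span of 376 kb. Tgfa (ENSMUSG00000029999) lies at chr6:86195223-86275719 on the plus strand. Egfr (ENSMUSG00000020122) lies at chr11:16752203-16918158 and Erbb2 (ENSMUSG00000062312) at chr11:98412470-98437716, both on the plus strand, Erbb3 (ENSMUSG00000018166) at chr10:128567523-128589652 on the minus strand, and Errfi1 (ENSMUSG00000028967) at chr4:150853919-150868892 on the plus strand. Erbb2 is overlapped on the other strand by Mien1, which reached 2853 counts in a library, and how the counting used strand is not given in the sources used here, so that reads shared by both genes cannot be assigned. The other overlapping genes reached at most 28 counts (Egfros at Egfr), 4 counts (1700045H11Rik at Errfi1), 1 count (Mir6917 at Erbb3) and 0 counts (Gm25048 at Erbb2).

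Areg and Errfi1 were the 2 members with the highest mean level per kb of exon, and the sequence just upstream of their start sites is shown together with that of Egfr, the member with the lowest mean level. RefSeq sequences on GRCm38.p6 gave 8 windows of 250 bases before an annotated start for 7 of the 10 members. Each was searched on both strands for the cAMP response element TGACGTCA (CRE) and the AP-1 element TGANTCA, and on the strand of the gene for the TATA element TATAAA. Capitals mark the CRE. The window shown for Errfi1 is that of its second annotated start, which holds the CRE. This second start, base 150855070, lies inside the gene span given above. The window of the first start, base 150853796, held no CRE, AP-1 or TATA element. The Areg window is chr5:91139349-91139598, that of the second annotated start of Errfi1 is chr4:150854820-150855069, and that of Egfr is chr11:16751953-16752202, all on the plus strand and written 5′ to 3′.
Areg: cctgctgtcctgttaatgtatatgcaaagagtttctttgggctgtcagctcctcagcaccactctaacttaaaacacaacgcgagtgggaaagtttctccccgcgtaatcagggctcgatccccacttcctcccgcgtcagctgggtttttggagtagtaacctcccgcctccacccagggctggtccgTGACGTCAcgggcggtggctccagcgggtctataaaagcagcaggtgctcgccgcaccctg
Errfi1, second start: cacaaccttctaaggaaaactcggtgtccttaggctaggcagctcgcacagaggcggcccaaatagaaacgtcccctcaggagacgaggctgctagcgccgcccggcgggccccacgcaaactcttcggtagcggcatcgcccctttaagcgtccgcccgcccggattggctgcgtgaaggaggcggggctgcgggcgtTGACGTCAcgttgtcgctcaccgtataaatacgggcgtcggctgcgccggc
Egfr: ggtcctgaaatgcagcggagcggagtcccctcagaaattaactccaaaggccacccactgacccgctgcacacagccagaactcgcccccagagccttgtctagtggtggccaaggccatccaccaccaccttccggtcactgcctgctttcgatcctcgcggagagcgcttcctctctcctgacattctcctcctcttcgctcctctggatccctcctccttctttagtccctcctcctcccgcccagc
The CRE letters begin 61 bases before the start of Areg and 51 bases before that of Errfi1, and TATAAA begins 31 and 28 bases before. Among all 32851 windows of this length, 1.55% hold the CRE, 6.75% the AP-1 letters and 7.59% TATAAA. The other 6 member windows held no CRE, and none of the 8 held the AP-1 letters. The Epgn window was the only other one with TATAAA, 86 bases before its RefSeq start. That start, base 91027517, lies inside the gene span given above. The second Errfi1 window overlaps an exon of the antisense gene 1700045H11Rik. The Epgn window overlaps 2 exons of Epgn itself, and the Erbb2 window 1 exon of Erbb2. A match of letters says nothing of binding in these tumours.

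Per kb of exon, levels of the members spanned a wide range. Controls had 232 CPM per kb of Areg (139 to 310 over the 5 libraries), 133 of Errfi1 (116 to 161), 52.4 of Ereg (25.3 to 96.1), 50.9 of Erbb3 (41.1 to 57.6) and 34.4 of Hbegf (27.1 to 47.3). Below these came Erbb2 with 24.7 CPM per kb (22.1 to 26.7), Tgfa with 10.6 (8.37 to 12.7), Btc with 8.16 (6.89 to 11.8), Epgn with 3.21 (1.21 to 4.38) and Egfr with 1.34 (0.10 to 2.90). In this order of control levels, neighbours did not overlap at 4 steps, namely Errfi1 over Ereg, Hbegf over Erbb2, Erbb2 over Tgfa and Btc over Epgn, and the others overlapped. The libraries labelled Glut1-KO gave the same order of means except that Erbb3 (47.2 CPM per kb) stood above Ereg (33.3 CPM per kb), whose ranges overlapped. The plot of levels per kb shows that the receptor at which these ligands act had the lowest mean transcript level of the 10 members in both groups. Within libraries, Areg stood above Errfi1 in 5 of 5 controls and in both male Glut1-KO-labelled libraries. In the 3 female libraries Errfi1 was the higher one, with 159, 164 and 113 CPM per kb against 155, 91.7 and 74.5 CPM per kb of Areg. Egfr was the lowest member in every library but replicate 4 labelled Glut1-KO, where it had 0.951 CPM per kb and Epgn 0.917. In controls 3 and 4 these genes were also close, with 2.90 and 0.925 CPM per kb of Egfr against 3.17 and 1.21 of Epgn.

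**Figure D1:**
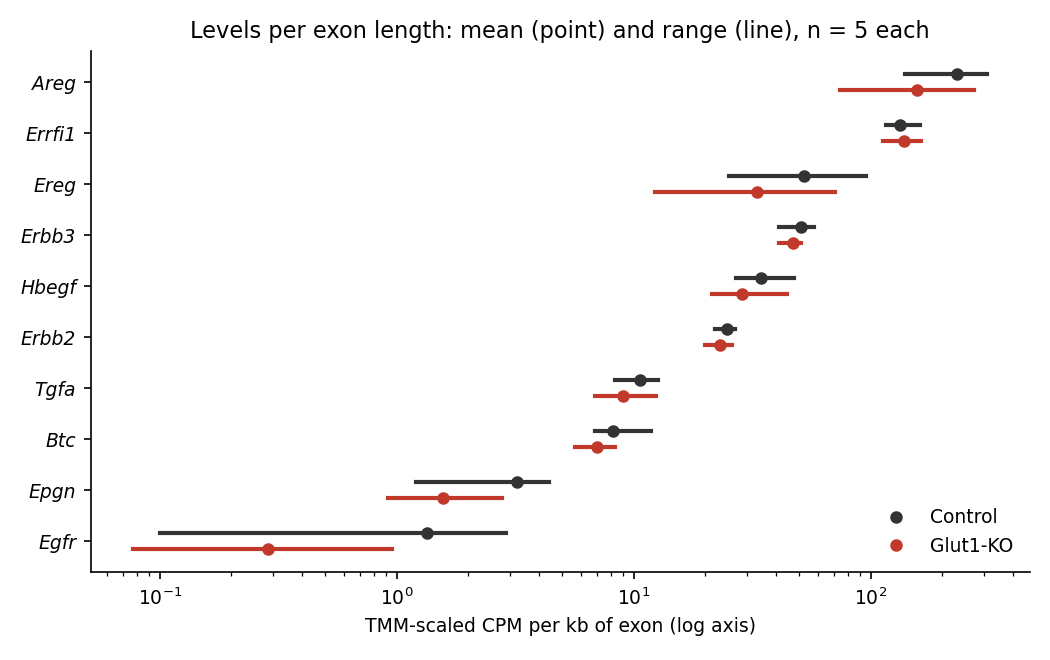
Level of each member in TMM-scaled CPM per kb of exon on a log axis, with the mean (point) and the range (line) over the 5 libraries of each group. By group means Areg is the highest and Egfr the lowest in both groups, and Egfr spreads most between libraries, from 0.0774 to 2.90 CPM per kb.

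Amphiregulin was the main ligand transcript of every library. Its share of the summed ligand level per kb was 68.0% ± 4.62 in controls (SD, n = 5) and 65.0% ± 4.89 in Glut1-KO-labelled libraries (SD, n = 5), and ranged from 60.0% to 74.7% over the 10 libraries. Ereg had 14.7% and 13.1% on average, Hbegf 10.3% and 13.5%, Tgfa 3.32% and 4.19%, Btc 2.70% and 3.47%, and Epgn 0.981% and 0.816%. The summed ligand level was 477, 382, 218, 316 and 311 CPM per kb in controls 1 to 5 and 220, 153, 124, 289 and 394 CPM per kb in replicates 1 to 5 labelled Glut1-KO. The 2 lowest sums were of female libraries, and the male libraries lay inside the control range.

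No member passed the test between the groups. limma called 0 of the 10 members at an adjusted p of 0.05 over all 15922 genes tested, where 0% of all genes were called, and the adjusted p of the members ran from 0.612 to 0.95. edgeR also called 0 members and 0 genes, and DESeq2 called 0 members and 215 genes (1.35%). At an unadjusted p under 0.05 limma had 1 member, Epgn, which lay lower, against 7.68% of all genes in either direction and 4.02% in this one, and edgeR had 2 (8.85% of all genes) and DESeq2 had 2 (10.8% of all genes). The log2 fold change (labelled Glut1-KO minus Control) lay below 0 for 9 of 10 members and for 50.7% of all genes, and its median was -0.28 over the members and -0.00492 over all genes. Here and below, the estimate with sex as a covariate compares only the 2 male Glut1-KO-labelled libraries with the controls, which were all male. These male libraries share a number in their deposited names, and their Slc2a1 lay inside the control range. With sex as a covariate, Areg (0.01), Ereg (0.13), Hbegf (0.08) and Tgfa (0.19) lay above 0 and Errfi1 (-0.05) below. The other members stayed below 0. The groups overlapped in 10 of 10 members, where 1.85% of all genes did not overlap. In bulk samples such as these, fewer cells of a type and less RNA per cell cannot be told apart.

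**Figure D2:**
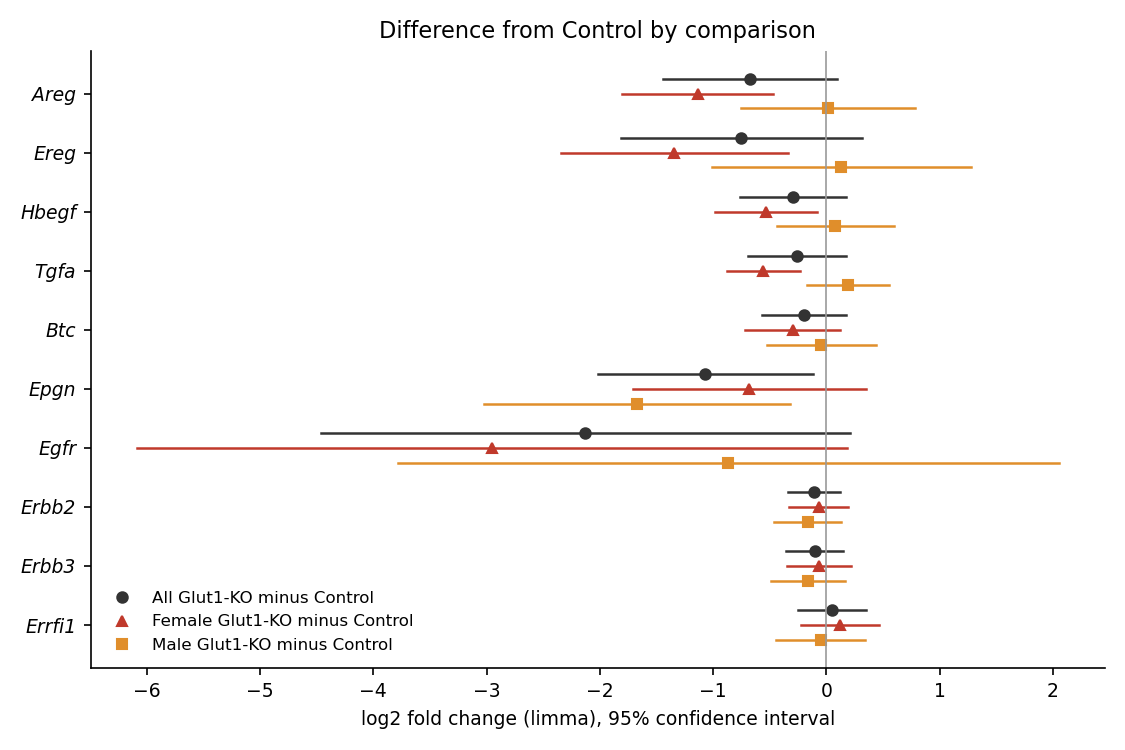
Log2 fold change of each member with its 95% confidence interval (limma), for all Glut1-KO-labelled libraries and for the female and the male libraries separately against the 5 controls. The estimates of Areg, Ereg, Hbegf and Tgfa lie below 0 for the female libraries and near or above 0 for the male ones.

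Areg, the amphiregulin gene, stood at 377, 329, 169, 253 and 282 CPM in controls 1 to 5. Replicates 1 to 5 labelled Glut1-KO had 188, 111, 90.6, 227 and 333 CPM. Of these, the female replicates 2 and 3 lay below every control, while replicates 1, 4 and 5 lay inside the control range. The means were 282 ± 78.7 and 190 ± 97.3 CPM (SD, n = 5 each). Between the groups the log2 fold change was -0.67 (SE 0.348, 95% interval -1.44 to 0.09), with an adjusted p of 0.687 by limma and a 2-sided exact permutation p of 0.135, where 5 against 5 libraries allow no p below 0.00794. With sex as a covariate the log2 fold change was 0.01.

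Ereg, which encodes epiregulin, had 397, 232, 105, 229 and 120 CPM in controls 1 to 5. The libraries labelled Glut1-KO had 115, 75.6, 50.9, 154 and 292 CPM. The same female replicates 2 and 3 lay below all controls, and the controls differed among themselves by more than did the group means of 216 ± 117 and 137 ± 94.8 CPM (SD, n = 5 each). The log2 fold change of -0.75 (SE 0.482, 95% interval -1.81 to 0.31) had an adjusted p of 0.747 by limma and an exact permutation p of 0.214. With sex as a covariate the log2 fold change was 0.13.

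Hbegf (ENSMUSG00000024486), the gene of heparin-binding EGF-like growth factor, had 229, 168, 131, 160 and 143 CPM in controls, against 107, 128, 103, 214 and 138 CPM in the Glut1-KO-labelled libraries. Its 3 female libraries lay below all controls and its 2 male libraries within them. The means of 166 ± 37.9 and 138 ± 44.7 CPM (SD, n = 5 each) gave a log2 fold change of -0.29 (SE 0.213), an adjusted p of 0.773 by limma and an exact permutation p of 0.246. Tgfa, which encodes transforming growth factor alpha, had the same layout, with 82.5, 62.6, 77.2, 66.9 and 54.3 CPM in controls, against 44.5, 48.0, 46.2, 80.6 and 74.5 CPM in the Glut1-KO-labelled libraries. Its log2 fold change was -0.26 (SE 0.197), with an adjusted p of 0.773 by limma and an exact permutation p of 0.254. Both genes thus had all 3 female libraries below all 5 controls, which 5.41% of all genes tested also had. With sex as a covariate the log2 fold change was 0.08 in Hbegf and 0.19 in Tgfa.

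Btc, the betacellulin gene, lay between 31.2 and 53.4 CPM in controls and between 25.7 and 37.8 CPM in the Glut1-KO-labelled libraries. Control 3 alone held the value of 53.4 CPM, the other controls lying between 31.2 and 34.4 CPM. The log2 fold change of Btc was -0.20 (SE 0.167, adjusted p 0.795 by limma) and -0.06 without control 3.

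Epgn, the gene of epigen, was the lowest ligand, with 7.92, 5.77, 5.73, 2.19 and 7.38 CPM in controls, against 5.02, 3.87, 1.93, 1.66 and 1.68 CPM in the Glut1-KO-labelled libraries. Here the male replicates 4 and 5 and the female replicate 3 lay below all controls, another set of libraries than in Hbegf and Tgfa. The means were 5.80 ± 2.24 and 2.83 ± 1.53 CPM (SD, n = 5 each). The fold change of Epgn on the log2 scale was -1.07 (SE 0.432, 95% interval -2.02 to -0.12), with an unadjusted p of 0.0312, an adjusted p of 0.612 by limma and an exact permutation p of 0.0556. It was -0.53 (unadjusted p 0.307) with voom quality weights by limma, and -1.67 with sex as a covariate.

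**Figure D3:**
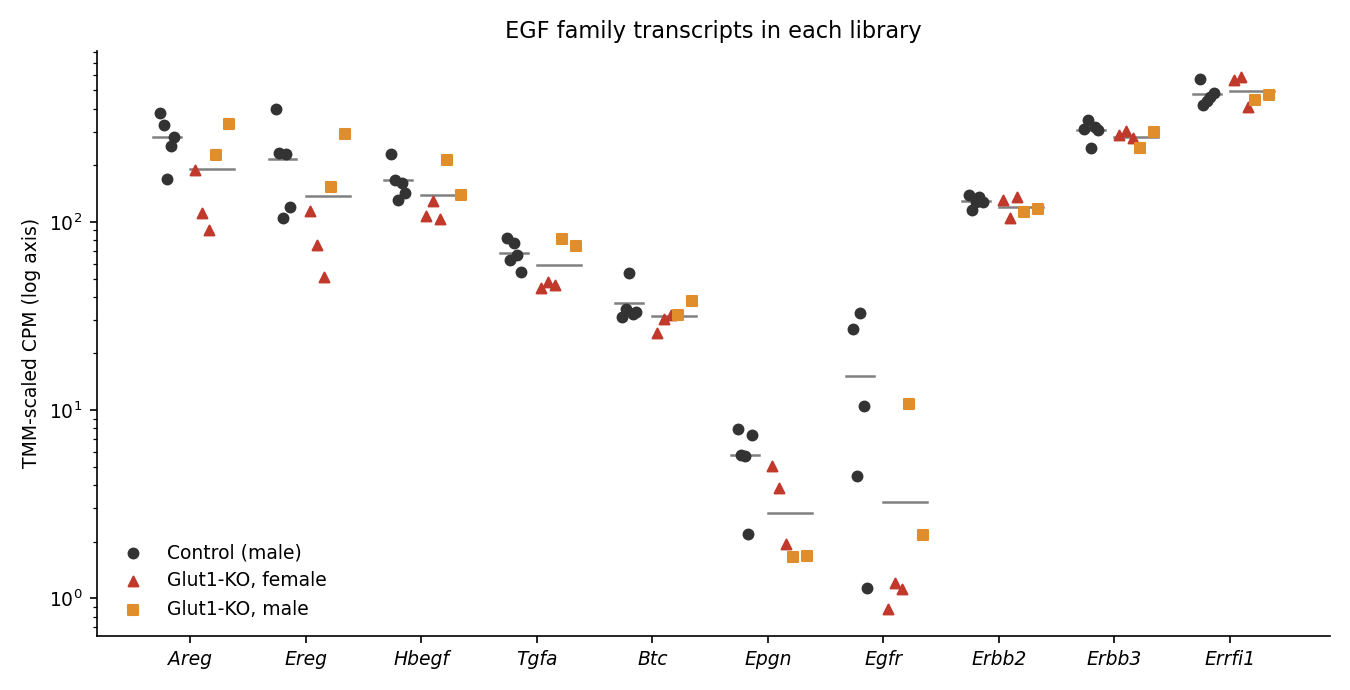
TMM-scaled CPM of each member on a log axis, with 1 point per library (controls, female and male Glut1-KO-labelled libraries marked apart) and a line at the mean of each group of 5. In Hbegf and Tgfa the 3 female libraries lie below the 5 controls and the 2 male ones within them, and Egfr spans 0.876 to 32.9 CPM.

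Egfr, the receptor of these ligands, varied most. It stood at 27.0, 4.47, 32.9, 10.5 and 1.13 CPM in controls and at 0.876, 1.21, 1.12, 10.8 and 2.17 CPM in the Glut1-KO-labelled libraries. Controls 1 and 3 were high and control 5 was as low as the female libraries, and of the Glut1-KO-labelled libraries only replicate 4 exceeded 2.17 CPM. The means were 15.2 ± 14.0 and 3.23 ± 4.24 CPM (SD, n = 5 each), resting on 36 to 1330 counts per library. The log2 fold change was -2.13 (SE 1.06, 95% interval -4.46 to 0.21), with an adjusted p of 0.678 by limma and an exact permutation p of 0.103. It was -0.86 with sex as a covariate, -0.87 with male libraries only, and -2.96 (adjusted p 0.385 by limma) when libraries that share a number in their deposited names were summed.

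The 2 other receptors were even. Erbb2 had between 115 and 139 CPM in controls and between 104 and 135 CPM in the Glut1-KO-labelled libraries, and its log2 fold change was -0.11 (SE 0.103, 95% interval -0.33 to 0.12, adjusted p 0.827 by limma). Erbb3 had 247 to 346 CPM and 248 to 305 CPM, with a log2 fold change of -0.10 (SE 0.113, 95% interval -0.35 to 0.15, adjusted p 0.849 by limma). The ratio of Erbb3 to Egfr per kb was 21.6, 146, 14.2, 57.4 and 511 in controls and 620, 473, 470, 43.3 and 259 in the Glut1-KO-labelled libraries. This ratio followed Egfr, since Erbb3 stayed between 247 and 346 CPM in all 10 libraries.

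Errfi1, whose product restrains the receptors, had 577, 416, 441, 463 and 481 CPM in controls. The libraries labelled Glut1-KO had 568, 586, 406, 443 and 472 CPM. The female replicate 2 was the highest and the female replicate 3 the lowest of all 10, and the others lay inside the control range. The log2 fold change was 0.05 (SE 0.137, 95% interval -0.25 to 0.35), with an adjusted p of 0.95 by limma and an exact permutation p of 0.746.

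When the Glut1-KO-labelled libraries were split by the sex on their labels, Areg, Ereg, Hbegf, Tgfa and Egfr were lower in all 3 female than in both male libraries and Epgn was higher, and none of these differences passed the adjusted test. This split was added after the data were seen. In 1 limma fit of 3 arms, the 3 female libraries differed from the 5 controls at an unadjusted p under 0.05 in 4 of 10 members, namely Areg, Ereg, Hbegf and Tgfa, against 14.6% of all genes in either direction and 6.97% below 0. None passed after adjustment, where 0.0691% of all genes did. Areg averaged 130 ± 51.4 CPM in the female libraries (SD, n = 3), with a log2 difference from controls of -1.14 (SE 0.298), an adjusted p of 0.184 by limma and an exact permutation p of 0.0357, where 56 assignments allow no p below 0.0179. Tgfa averaged 46.2 ± 1.72 CPM there (SD, n = 3), with a log2 difference of -0.55 (SE 0.145, adjusted p 0.184 by limma, exact permutation p 0.0357). Ereg had a log2 difference of -1.34 (SE 0.451, adjusted p 0.25 by limma, exact permutation p 0.0536) and Hbegf of -0.53 (SE 0.202, adjusted p 0.285 by limma, exact permutation p 0.0357). The female Egfr level was 1.07 ± 0.174 CPM (SD, n = 3), the log2 difference from controls being -2.95 (SE 1.4, adjusted p 0.363 by limma), against -0.86 (adjusted p 0.839 by limma) for the male libraries. All controls were male, so these differences cannot be told apart from one between the sexes.

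The 2 male libraries labelled Glut1-KO had values around those of the male controls in the same ligands, with wide intervals. Their log2 difference was 0.01 in Areg (95% interval -0.76 to 0.78), 0.13 in Ereg (-1.01 to 1.28), 0.08 in Hbegf (-0.44 to 0.59), 0.19 in Tgfa (-0.17 to 0.55) and -0.04 in Btc. In Epgn the males lay farther from the controls than the females, with a log2 difference of -1.67 (SE 0.606, adjusted p 0.39 by limma) in the males and of -0.68 in the females. It was the 1 member at an unadjusted p under 0.05 in the males, against 11.1% of all genes, and 0 members passed after adjustment, against 0.0188%. The exact permutation p of Epgn in the males was 0.0476, the smallest that 21 assignments allow. It treats libraries as independent, though both male ones labelled Glut1-KO share a number in their deposited names. When libraries sharing such a number were summed, the unadjusted limma p of Epgn between the whole groups was 0.0699. Female minus male within the group labelled Glut1-KO gave -1.15 in Areg (adjusted p 0.169 by limma), -1.47 in Ereg (adjusted p 0.213), -0.61 in Hbegf (adjusted p 0.239) and -0.74 in Tgfa (SE 0.180, adjusted p 0.12). At an unadjusted p under 0.05 these were 4 of 10 members, against 18.6% of all genes. None of these differences between the sexes passed the adjusted threshold, which 0.0502% of all genes did. The 3 libraries with Slc2a1 below the controls were also the 3 lowest in Hbegf and Tgfa, and sex, Slc2a1 level and library cannot be told apart.

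Over the 10 libraries, members were compared in 45 pairs on the log2 CPM scale, and 35 of the 45 had a Pearson r above 0. Areg and Ereg, neighbours on chromosome 5, went together most closely, with r = 0.931 (permutation p 8.00e-05, adjusted over the pairs 0.0036) and Spearman's rho = 0.964 (adjusted 0.00495), and r was 0.858 without the 2 libraries farthest from the median of Areg. Pairs of Areg or Ereg with Epgn or Btc, which lie in the same span of chromosome 5, had r from 0.018 to 0.267. Tgfa and Egfr, a ligand and its receptor, had r = 0.861 (permutation p 0.00333, adjusted 0.0749) and rho = 0.915 (permutation p 0.00052, adjusted 0.0117), and r = 0.802 without the 2 farthest libraries. Hbegf and Tgfa had r = 0.782 (adjusted 0.114). The other pairs did not pass by either measure. Some libraries of a group share a further number in their deposited names, of which the controls carry 2 and the Glut1-KO-labelled libraries 4, with both male ones under the same number. Such libraries may not be independent, and no correlation within a group is given because each holds only 5 libraries.

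Among the 15912 other genes tested, those whose pattern over the 10 libraries was most like that of Egfr were Inhba (r = 0.986, rho = 0.952), which encodes a subunit of activin, Tns4 (r = 0.960), Slc9a2 (r = 0.959), Tmprss11e (r = 0.955) and Sh2d5 (r = 0.951). Inhba had 12.7, 3.75, 25.9, 7.58 and 1.23 CPM in controls, against 0.609, 0.975, 1.08, 5.28 and 1.79 CPM in the Glut1-KO-labelled libraries. Like Egfr it was highest in controls 1 and 3 and, among the Glut1-KO-labelled libraries, in replicate 4. The genes were picked for their likeness out of all genes, so r is a description here and carries no test.

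The remaining genes of the pathway were counted from 6 lists, ordered by role. Of 6 other EGF family genes, 3 could be tested and 0 were called. Egf itself had 7.28 ± 3.80 CPM in controls against 10.3 ± 7.32 CPM in the Glut1-KO-labelled libraries (SD, n = 5 each, adjusted p 0.855 by limma). Nrg1, a neuregulin that binds ERBB3, had 9.90 ± 4.49 and 10.1 ± 8.19 CPM (adjusted p 0.922 by limma), and Nrg4 0.498 ± 0.332 and 1.68 ± 1.19 CPM (adjusted p 0.562 by limma). Erbb4, the remaining receptor of the family, averaged 0.0085 CPM in controls and 0.0228 CPM in the other group, and was not tested.

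Of the 11 genes for ligand shedding, 4 lay above 0 and 7 below, with a median log2 fold change of -0.09, and 0 were called. With sex as a covariate the median was 0.07, with 7 above 0 and 4 below. Adam17, the main sheddase of Areg and Tgfa, had 88.8 ± 9.39 and 105 ± 18.7 CPM (SD, n = 5 each, adjusted p 0.728 by limma). Adam8, a related metalloprotease, had 15.9 ± 10.9 and 4.34 ± 2.36 CPM, a log2 fold change of -1.71 (SE 0.575) with an adjusted p of 0.513 by limma. Its adjusted p was 0.0208 by DESeq2 and 0.364 by edgeR. Rhbdf1, which encodes an inactive rhomboid partner of ADAM17, had a log2 fold change of -0.32 (adjusted p 0.646 by limma) and the metalloprotease gene Adam15 of 0.29 (adjusted p 0.665 by limma).

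Of the 18 genes that relay the signal from receptor to ERK, 8 lay above 0 and 10 below, the median was -0.03 and 0 were called. With sex as a covariate the median was 0.07, with 11 above 0 and 7 below. Ptpn11, which encodes the phosphatase SHP2, had a log2 fold change of -0.25 (adjusted p 0.624 by limma) and the adaptor gene Gab1 of 0.31 (adjusted p 0.723 by limma). Of 23 genes that restrain receptors or ERK, 22 could be tested, 10 lay above 0 and 12 below, with a median of -0.03, and 0 were called. With sex as a covariate the median was -0.12, with 8 above 0 and 14 below, and for the female libraries against controls it was 0.02, with 12 above 0 and 10 below. Among these, Rasa1, a RAS GTPase-activating protein gene, had a log2 fold change of -0.35 (adjusted p 0.616 by limma) and Cblb, a ubiquitin ligase gene, of -0.41 (adjusted p 0.667 by limma). Lrig3 had 13.9 ± 17.3 and 2.08 ± 1.30 CPM (SD, n = 5 each), and its log2 fold change was -2.05 (SE 0.891), with an adjusted p of 0.644 by limma, 0.376 by edgeR and 0.0184 by DESeq2.

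Of the 10 genes that ERK signalling is known to induce, 2 lay above 0 and 8 below, with a median of -0.16, and 0 were called. The median was -0.10 with sex as a covariate and -0.22 for the female libraries against controls. Etv4, a transcription factor gene, had 61.1 ± 14.3 and 41.9 ± 8.33 CPM (SD, n = 5 each), and its log2 fold change was -0.53 (SE 0.193, adjusted p 0.559 by limma). Dusp6, an ERK phosphatase gene, had a log2 fold change of -0.49 (adjusted p 0.642 by limma) and the ephrin receptor gene Epha2 of -0.50 (adjusted p 0.644 by limma). The summed level of this list was 2229, 1876, 1979, 2107 and 1777 CPM in controls, against 1654, 1616, 1566, 2136 and 1978 CPM in the Glut1-KO-labelled libraries. The 3 female libraries had the 3 lowest sums, as they had the 3 lowest values of Hbegf and Tgfa. A link between these ligands and the list was not tested, and it cannot be told apart from a difference between the sexes.

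**Figure D4:**
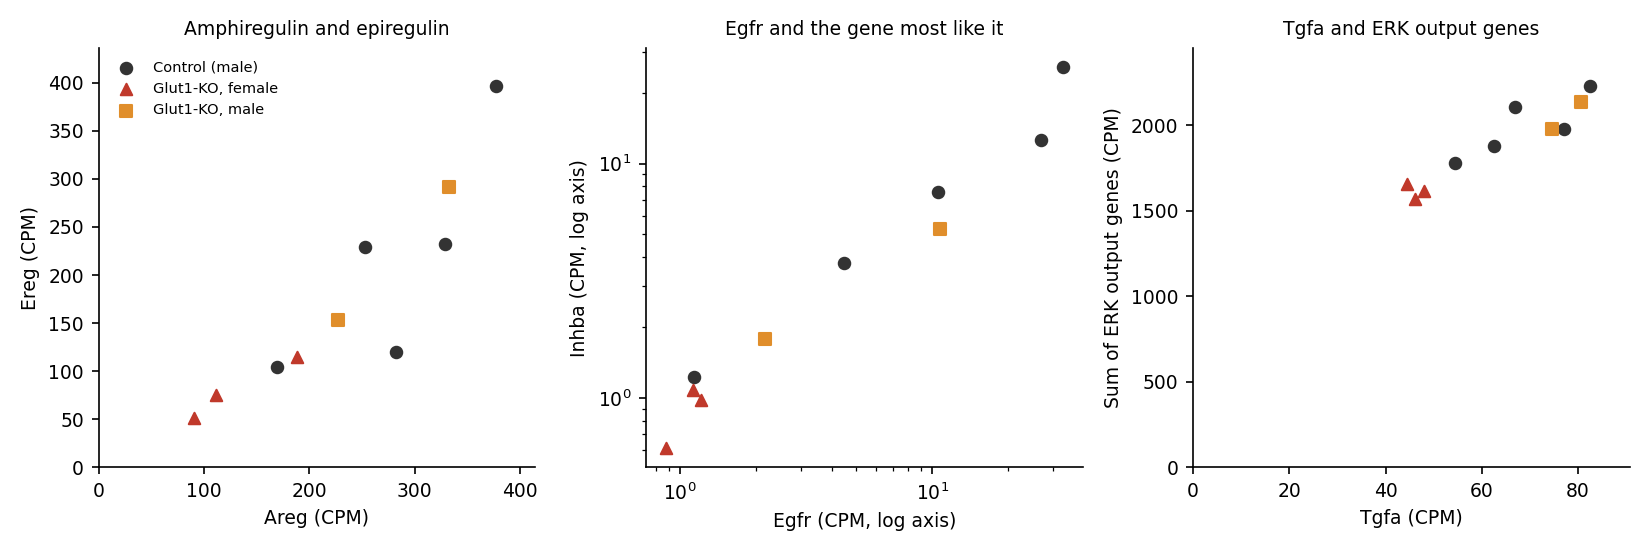
Ereg against Areg in CPM, Inhba against Egfr in CPM on log axes, and the summed CPM of the 10 ERK-induced genes against Tgfa in CPM, with 1 point per library marked by group and sex. Areg and Ereg rank the libraries nearly alike (rho = 0.964), Inhba follows Egfr (r = 0.986), and the 3 female libraries hold the lowest values of both Tgfa and the ERK-induced sum (1566 to 1654 CPM).

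Immediate-early genes, which growth factors induce and which tissue dissociation also induces, were the pathway list with the largest share of values below 0. Of its 16 genes 15 lay below 0, with a median of -0.32, and limma called 0. With sex as a covariate, that is for the male replicates 4 and 5 against controls, the median was -0.70, with 16 of 16 below 0. These male libraries share a number in their deposited names and may not be independent. For the female libraries against controls the median was -0.23, with 11 below 0 and 5 above. Atf3 had 310 ± 73.7 and 160 ± 20.7 CPM (SD, n = 5 each), and its log2 fold change was -0.94 (SE 0.170), with an adjusted p of 0.23 by limma and 0.000274 by DESeq2. Jun had a log2 fold change of -0.74 (adjusted p 0.363 by limma, 0.0236 by DESeq2) and Ier3 of -0.80 (adjusted p 0.37 by limma, 0.0215 by DESeq2). The groups did not overlap in 3 of the 16 (Atf3, Jun and Dusp1, but not Ier3), where 1.06% of all genes did not overlap in this direction. The summed level of the list was 7447, 6541, 8816, 7082 and 7882 CPM in controls, against 6332, 6731, 7020, 4827 and 4369 CPM in the Glut1-KO-labelled libraries. The male replicates 4 and 5 had the lowest sums, whereas Areg, Ereg, Hbegf and Tgfa were lowest in female libraries. DESeq2 called 5 of the 78 pathway genes tested, all lower (Adam8, Lrig3, Jun, Atf3 and Ier3), against 0.659% of all genes in this direction, and edgeR called 0. The part of dissociation in the levels of the members was not tested.

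Markers of the cell types that the sorted fraction could hold were read beside the members. Leukocyte markers (11 of 14 tested, 9 above 0, 5 without overlap and higher, as were 0.798% of all genes) summed to 30.8 to 54.2 CPM in controls and 36.3 to 63.0 CPM in the Glut1-KO-labelled libraries, against 3327 to 4343 and 2809 to 6251 CPM for the epithelial markers. Club cell markers (5 of 5 below 0) summed to 1705 to 9700 and 946 to 6667 CPM, ciliated cell markers (6 of 6 tested below 0) to 11.8 to 211 and 16.4 to 50.6 CPM, endothelial markers (7 of 7 above 0) to 66.9 to 283 and 108 to 403 CPM, and fibroblast markers (5 of 7 below 0) to 93.9 to 370 and 63.4 to 410 CPM. Alveolar type 2 markers summed to 25888 to 72612 and 48694 to 66241 CPM, and alveolar type 1 markers to 1042 to 1954 and 1184 to 2351 CPM. limma and edgeR called 0 markers, while DESeq2 called 6. Of these, Ptprc (2.76 CPM in controls and 7.92 CPM in the other group, adjusted p 1.96e-06 by DESeq2), Fcer1g, Coro1a, Tyrobp and Laptm5, all leukocyte genes, were higher, as DESeq2 called 0.691% of all genes, and the ciliated cell gene Foxj1 (21.9 and 3.20 CPM, adjusted p 0.00764 by DESeq2) was lower. The part of cell type shares in the levels of the ligands and of Egfr was not tested.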

How the data were processed

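RNA of 10 mouse lung tumour samples was measured by sequencing of polyadenylated transcripts from stranded libraries. The authors aligned single-end reads to mm10 with HISAT2 and deposited raw read counts per gene; the submitters' processing notes name featureCounts 1.4.4, cutadapt 1.4.2, bcl2fastq 2.17 and edgeR. The annotation release and the use of strand in counting are not given in the sources used here. Deposited log2 values were not used here.

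Work was done in R 4.3.3. The filterByExpr function of edgeR 4.0.16 (at least 10 counts, total of at least 15) retained 15922 genes. After TMM scaling and the voom transformation (prior count of 0.5), a limma 3.58.1 model with the group as its term was fitted, and Benjamini-Hochberg adjustment ran over every retained gene, with a threshold of 0.05. TMM, voom and limma are also the tools of the study, which filtered by TPM. Levels are TMM-scaled CPM. Where genes are compared, they are divided by the length of all annotated exons of a gene, merged over its transcripts (GENCODE M21, GRCm38). The order of genes with close levels depends on this choice of length. Exact permutation tests were 2-sided. Correlations over libraries were tested 2-sided with 100000 resamples. On simulated counts of the comparison of both groups, 40% of 2-fold and 91% of 4-fold changes were recovered, of 100 genes each among 15922. The changed genes were drawn from those with a mean above 100 counts. Simulated libraries were independent and held no difference between the sexes, so these shares do not give the power for any single member.

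Groups came from the labels. An allele that both groups carry, and the values of 1 gene on a pathway list, are not reported here. The members and the gene lists were chosen with earlier results of these data known. All members are described. On each pathway list the genes with the smallest limma p are named, and for Egfr and Epgn the 5 genes with the highest r. Adam17 and Erbb4 were added for their role, and Dusp1 for its lack of overlap between the groups. Alternatives were edgeR and DESeq2 1.42.0 tests, other filters and scalings, voom quality weights, sex as a covariate, male libraries only, sums over shared name numbers, a replicate block, leaving out each library and, added after seeing the data, 3 arms by sex.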

Additional observations from a re-analysis of the deposited data

Results flagged for a closer look

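In each group of 5 libraries, the highest or lowest value was held against the others, and a value was singled out when its gap to the nearest of them took more than 0.71 of the range. Of 52 such groups 5 were singled out, and chance flags about 1 in 20 groups. Btc of control 3 stood at 53.4 CPM, above the 31.2 to 34.4 CPM of the other controls. Egfr of replicate 4 labelled Glut1-KO stood at 10.8 CPM, above the 0.876 to 2.17 CPM of the others. The summed leukocyte markers of control 1 were 54.2 CPM, above 30.8 to 37.2 CPM in the other controls, and those of replicate 5 labelled Glut1-KO were 36.3 CPM, below 56.0 to 63.0 CPM in the others. Control 2 had a total of 49.8 M counts, above 40.1 to 41.4 M in the other controls.

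Tgfa differed between the sexes of the group labelled Glut1-KO in the sense that each of the 3 female libraries lay below the control mean of 68.7 CPM and both male libraries above it. Hbegf came close, with female libraries at 103 to 128 CPM, below its control mean of 166 CPM, and male ones at 214 and 138 CPM, of which the second also lay below that mean. In Tgfa female minus male was -0.74 on the log2 scale (SE 0.180), with an unadjusted p of 0.00206 and an adjusted p of 0.12 by limma over all genes. The exact permutation p was 0.1, the smallest that 10 assignments allow, and the direction held in 3 of 3 female libraries.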

How the results depend on the processing

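The count of members called was 0 under every alternative that was run. Of 228 log2 fold changes of members under alternatives, 211 kept their direction and 17 reversed. With sex as a covariate, or in the 3-arm fit for males, the log2 fold change became 0.0117 in Areg, 0.134 in Ereg, 0.0784 in Hbegf, 0.190 in Tgfa and -0.0503 in Errfi1. With male libraries only it became 0.0108, 0.133, 0.0776, 0.189 and -0.0512, with exact permutation p of 0.952, 0.810, 0.905, 0.381 and 0.762. In that setting the exact permutation p of Epgn was 0.0476. With voom quality weights Epgn was -0.529 (unadjusted p 0.307), and with name numbers summed its unadjusted p was 0.0699. Errfi1 also crossed 0 without replicate 1 (-0.00334) or replicate 2 (-0.0144) labelled Glut1-KO, and its values with a library left out ran from -0.0144 to 0.122. With a library left out, Areg ran from -0.90 to -0.45, Ereg from -1.08 to -0.46, Hbegf from -0.46 to -0.17, Tgfa from -0.38 to -0.17, Btc from -0.26 to -0.06 (lowest in size without control 3), Epgn from -1.37 to -0.90 (its unadjusted limma p running from 0.00259 to 0.0806), Egfr from -2.83 to -1.66 (but -0.865 with sex as a covariate, -0.866 with male libraries only and, at an unadjusted p of 0.00248, -2.965 with name numbers summed), Erbb2 from -0.15 to -0.06 and Erbb3 from -0.18 to -0.05. The study's TPM filter of 20 left 8 of 10 members, without Epgn and Egfr.

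Over all genes the count called moved from 0 to 215 with DESeq2, 3 with sex as a covariate, 1 with male libraries only, 2 with libraries of a shared name number summed, 11 for the female and 3 for the male arm, and 0 to 1 with a library left out, the 1 being without control 3. With sex as a covariate, and with male libraries only, the list medians became 0.0712 and 0.0703 for shedding, 0.0711 and 0.0700 for the relay and -0.701 and -0.702 for immediate-early genes, and in the female arm the shedding median was -0.235. For restraint they became -0.124 and -0.125 and for ERK-induced genes -0.0971 and -0.0980. Over the 78 tested pathway genes the count called moved from 0 to 5 with DESeq2, 1 with sex as a covariate and 1 for the male arm. The cause was not tested. Same-numbered replicates of both groups shared only a number (correlations of their deviations from -0.132 to 0.197, and 1 of 5 correlated best with its own number), and with the replicate block 0 genes and 0 members were called.

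Depth limits Epgn and Egfr most, with at least 54 and 36 counts per library.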

Other observations

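The genes whose pattern over the 10 libraries was most like that of Epgn were Rarb (r = 0.910), which encodes a retinoic acid receptor, Rasl11b (r = 0.903), Gm10224 (r = 0.876), Kcnrg (r = 0.868) and D16Ertd472e (r = 0.868), out of 15912 genes. Rarb had 10.1 ± 6.43 CPM in controls, against 4.38 ± 4.12 CPM in the Glut1-KO-labelled libraries (SD, n = 5 each), and its log2 fold change was -1.48 (SE 0.623), with an adjusted p of 0.624 by limma. Rasl11b had 17.8 ± 6.56 and 11.2 ± 3.63 CPM (SD, n = 5 each), and its log2 fold change was -0.66 (SE 0.317) with an adjusted p of 0.674 by limma. These genes were picked for their likeness, so that r is a description with no test.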
